A study of Mus musculus with 8 samples.

Results

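The unfolded protein response and the integrated stress response were examined through 10 genes of the 23356 in the deposited expression table, picked by their symbols. They form 2 arms of 5 genes. The endoplasmic reticulum (ER) arm holds *Hspa5*, *Xbp1*, *Dnajb9*, *Herpud1* and *Sdf2l1*, and the ATF4 arm holds *Atf4*, *Trib3*, *Chac1*, *Asns* and *Sesn2*. All 10 were found and all 10 passed the filter on low values (at least 1 FPKM in at least 1 group), as did 11397 genes of the whole table. The cells were dendritic cells (DCs) grown from the bone marrow of mice with GM-CSF and IL-4 for 6 days. Marrow came from WT mice and from mice that lack *Arhgef2*, the gene of the microtubule-bound exchange factor GEF-H1 (GEF-H1-/-), both on a C57BL/6 background (C57BL/6N in the study's methods, which give sex-matched mice aged 8 to 16 weeks). Each genotype was left untreated (control) or was given ansamitocin-P3, a maytansine-type drug that binds tubulin and destabilizes microtubules, at 100 nM for 5 h. RNA-seq was made from 8 libraries, 2 for each of the 4 groups, and how many mice stand behind a library is not given in the sources used here.

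The ER folds secreted and membrane proteins, and the unfolded protein response is what a cell does when folding falls behind. Its sensors IRE1, PERK and ATF6 lie in the ER membrane. IRE1 splices *Xbp1* mRNA so that an active factor is made, and XBP1 together with cleaved ATF6 switches on genes for chaperones and for the disposal of misfolded proteins. PERK belongs to a group of kinases that phosphorylate the initiation factor eIF2α, as do GCN2 in amino acid shortage, PKR in viral infection and HRI in heme shortage. This common step, the integrated stress response, lowers protein synthesis and favors translation of *Atf4* mRNA, whose product drives genes for amino acid supply and, later, for stopping the response. DCs are known for steady IRE1 and XBP1 activity. The gene-level values used here show the amount of mRNA and can show neither *Xbp1* splicing nor ATF4 protein.

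The DNA elements through which the arms are usually read were looked for in the 250 bases before the RefSeq start of each gene (GRCm38.p6, all 10 genes matched), on both strands. The 4 motifs were the ER stress element ERSE (CCAAT and CCACG with 9 bases of any kind between them), its variant ERSE-II (ATTGG and CCACG with 1 such base between them), the unfolded protein response element UPRE (TGACGTGG) and the C/EBP-ATF response element CARE (TGATGNAA), the type bound by ATF4 with a C/EBP partner. ERSE was found in *Hspa5*, ERSE-II in *Herpud1*, and CARE in *Chac1*, *Asns* and *Herpud1*, so that *Herpud1*, counted to the ER arm, held an element of each type. Among 32851 promoter windows of the same length, ERSE was in 0.113%, ERSE-II in 0.0304%, UPRE in 0.563% and CARE in 3.45%. The stretches with matches are shown with the matched letters in capitals and each on the strand of its gene. A match of letters does not by itself tie a gene to an arm. No 2 matches overlapped.
Hspa5, chr2:34772020-34772049, plus strand: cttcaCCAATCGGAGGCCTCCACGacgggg
Herpud1, chr8:94386308-94386397, plus strand: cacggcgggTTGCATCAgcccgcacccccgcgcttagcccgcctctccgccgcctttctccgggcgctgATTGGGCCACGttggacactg
Chac1, chr2:119351008-119351097, plus strand: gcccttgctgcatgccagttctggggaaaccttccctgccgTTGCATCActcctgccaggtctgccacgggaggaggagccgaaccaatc
Asns, chr6:7693214-7693243, minus strand: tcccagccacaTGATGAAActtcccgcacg
The CARE matches of *Chac1* and *Herpud1* read on the opposite strand. The stretches of *Hspa5* and *Asns* lie before the RefSeq start but touch an exon of a longer transcript in GENCODE M21. The other 6 windows held no match to these letters, which says nothing about sites elsewhere or about near matches.

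Values are FPKM, fragments scaled to the length of the transcript and to the size of the library, so levels can be compared between genes per length. The table gives 1 FPKM per gene and group, into which the 2 libraries were combined, with the bounds of a 95% interval that Cuffdiff computed. There is therefore no SD and no p-value, and no difference was tested against the spread between libraries. In what follows a gene is said to have risen or fallen, or to be higher or lower in a genotype, where the intervals of the groups did not overlap. Groups with overlapping intervals may still differ, so overlap does not show that a gene was unchanged. Changes are log2 ratios of FPKM + 1, which understates those of genes at low FPKM. For the members the interval spanned a median of 46.2% of the FPKM (35.9% to 61.4%), and no FPKM lay outside its interval. The sum of FPKM over all genes ran from 599331 in control GEF-H1-/- to 739523 in treated WT DCs. For *Arhgef2* itself, WT DCs had 42.3 FPKM (34.5 to 49.98) without and 45.9 (36.9 to 54.9) with the drug, and GEF-H1-/- DCs had 4.59 (3.54 to 5.63) and 4.16 (3.22 to 5.11). All 8 DC markers looked for were present in every group, and so were 6 of the 7 neutrophil genes looked for. The neutrophil genes had a summed level of 21129 to 36150 FPKM against 4760 to 7374 for the DC markers. Such sums follow the genes with the highest FPKM and do not give shares of cells.

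In WT DCs given ansamitocin-P3, *Atf4* and *Trib3* of the ATF4 arm rose and *Sdf2l1* of the ER arm fell. The other 7 members had overlapping intervals. In GEF-H1-/- DCs, no member had intervals apart. Of the ATF4 arm, *Trib3* and *Chac1* were lower in GEF-H1-/- than in WT DCs both without and with the drug, and *Asns* was lower with it, while no member of the ER arm was apart between the genotypes.

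**Figure D1:**
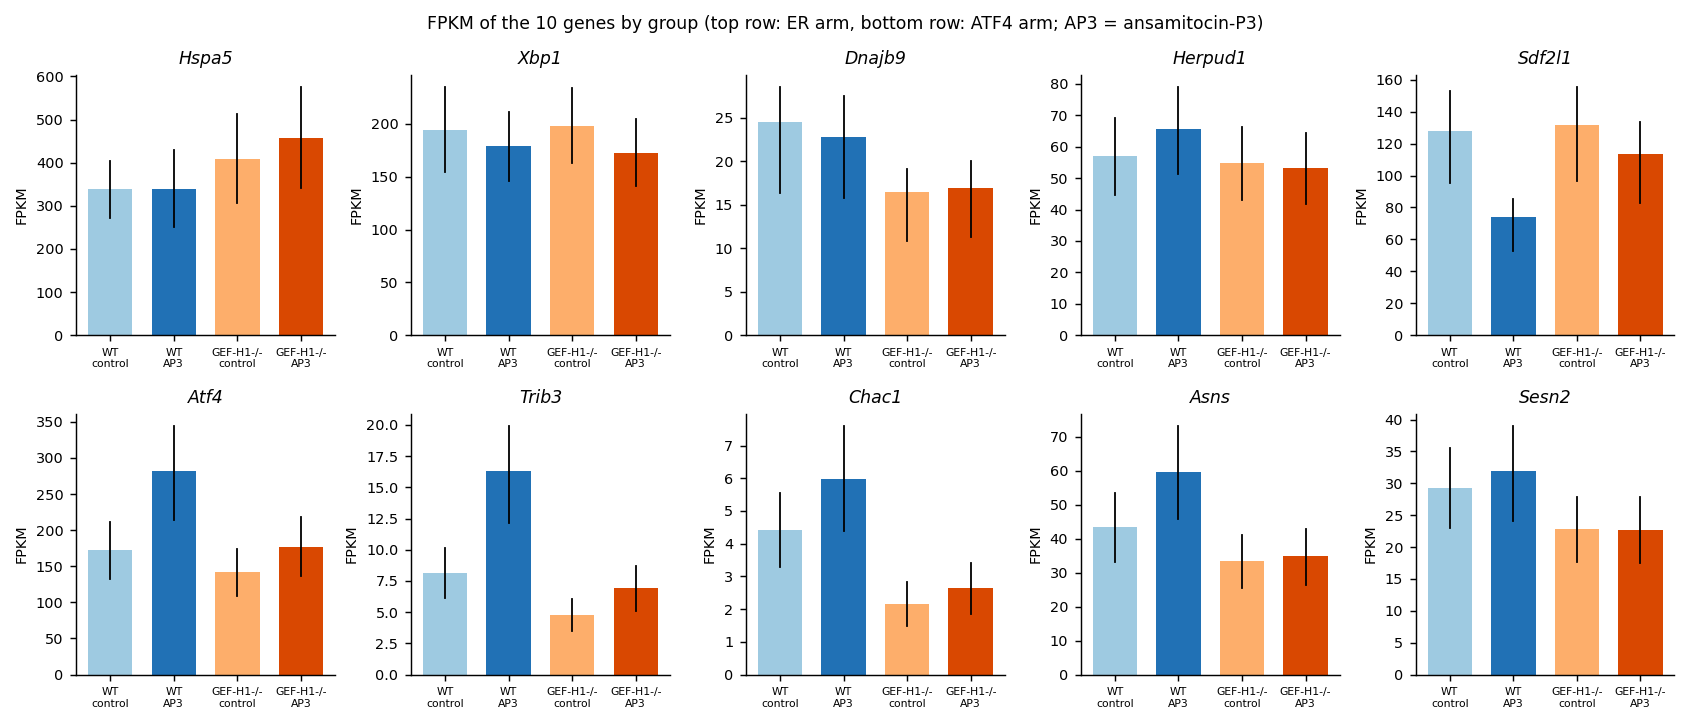
FPKM (vertical axes, each from 0) of the 5 ER genes (top row) and the 5 ATF4 genes (bottom row) in the 4 groups; bars are the pooled group values and black lines the Cuffdiff 95% intervals. *Atf4* and *Trib3* stand highest in treated WT DCs, at 281 and 16.3 FPKM, and *Sdf2l1* stands lowest there, at 73.8 FPKM.

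Among ATF4-type genes, *Atf4* encodes the transcription factor that heads this arm (chromosome 15, 80255184 to 80257541, GRCm38). WT DCs had 173 FPKM (133 to 212) without and 281 (214 to 344) with the drug, and GEF-H1-/- DCs had 142 (109 to 174) and 177 (136 to 218). The treated WT group was the highest, and the bound that separates it from control WT DCs is narrow, 214 against 212 FPKM. Its log2 change of 0.70 for WT cells lay above that of 92.7% of the genes past the filter, and the change of 0.31 for GEF-H1-/- cells above that of 91.2%.

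*Trib3* encodes a pseudokinase that is induced by ATF4 and CHOP and in turn restrains ATF4 (chromosome 2, 152337425 to 152344060). Its level was 8.13 FPKM (6.13 to 10.1) without and 16.3 (12.1 to 19.9) with the drug in WT DCs, and 4.80 (3.52 to 6.05) without and 6.92 (5.12 to 8.68) with it in GEF-H1-/- DCs. Treated WT DCs lay above each of the other 3 groups without overlap, and treated GEF-H1-/- DCs did not reach the FPKM of control WT DCs. Its log2 change of 0.92 in WT DCs was the largest of the 10 members. In GEF-H1-/- DCs it was 0.45.

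*Chac1* encodes an enzyme that breaks down glutathione and is a late target of ATF4 and CHOP (chromosome 2, 119351242 to 119354327). It had the lowest level of the 10 genes in every group, with 4.43 FPKM (3.27 to 5.56) before and 5.98 (4.37 to 7.59) after the drug for WT cells, and 2.16 (1.495 to 2.82) and 2.64 (1.86 to 3.41) for GEF-H1-/- cells. The intervals of control and treated cells overlapped in both genotypes, and the log2 changes were 0.36 and 0.20.

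*Asns* encodes asparagine synthetase, a textbook target of ATF4 in amino acid shortage (chromosome 6, 7675171 to 7693182). WT DCs had 43.6 FPKM (33.1 to 53.5) without and 59.7 (45.8 to 73.1) with the drug, and GEF-H1-/- DCs had 33.5 (25.4 to 41.2) and 34.8 (26.5 to 42.9). The groups of each genotype overlapped, and the log2 change was 0.45 for WT against 0.05 for GEF-H1-/- cells.

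*Sesn2* encodes sestrin 2, a leucine-binding inhibitor of mTORC1 signaling that is also a target of p53 (chromosome 4, 132492807 to 132510456). It was at 29.2 FPKM (22.9 to 35.5) and 31.9 (24.1 to 39.0) in control and treated WT DCs and at 22.8 (17.7 to 27.8) and 22.7 (17.5 to 27.9) in GEF-H1-/- DCs. All 4 intervals overlapped. In GENCODE M21, *Gm12981* overlaps *Sesn2* on the same strand, so that strand cannot separate their reads where they overlap. *Gm15890* overlaps *Herpud1* on the opposite strand. The libraries were stranded, but the sources used here do not state that strand was used for these FPKM, so reads of *Gm15890* and *Herpud1* may not have been separated either.

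Of the ER arm, *Sdf2l1* was the only member with intervals apart after the drug, in WT DCs. It encodes an ER protein that works with the chaperone BiP and its DNAJ partners (chromosome 16, 17130138 to 17132383). WT DCs had 128 FPKM (95.1 to 153) without and 73.8 (52.7 to 85.2) with the drug, and GEF-H1-/- DCs had 131 (96.7 to 155) and 114 (82.8 to 133). Both control groups lay above treated WT DCs without overlap, whereas treated GEF-H1-/- DCs overlapped with every other group. The log2 change was -0.79 in WT DCs, lower than for all but 3.48% of genes, and -0.21 in GEF-H1-/- DCs.

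*Hspa5* encodes BiP, the main chaperone of the ER lumen (chromosome 2, 34772090 to 34776529), and had the highest level of the 10 genes in every group. WT DCs had 338 FPKM (272 to 404) without and 339 (250.2 to 429.9) with the drug, and GEF-H1-/- DCs had 409 (305 to 512) and 457 (342 to 576). All 4 intervals overlapped. The log2 change with the drug was 0.00 for WT against 0.16 for GEF-H1-/- cells.

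*Xbp1* encodes the factor activated by IRE1 (chromosome 11, 5520641 to 5525993). WT DCs had 194 FPKM (154 to 235) without and 179 (146 to 212) with the drug, and GEF-H1-/- DCs had 198 (163 to 234) and 173 (141 to 204). It had the smallest range over the 4 groups of all 10 members, 0.20 on the log2 scale.

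*Dnajb9* encodes the BiP cofactor ERdj4 (chromosome 12, 44205897 to 44210068) and was at 24.5 FPKM (16.4 to 28.5) and 22.8 (15.8 to 27.5) in control and treated WT DCs, and at 16.4 (10.8 to 19.1) and 16.9 (11.3 to 20.0) in GEF-H1-/- DCs. *Herpud1* encodes a membrane protein of ER-associated degradation (chromosome 8, 94386500 to 94395358) and was at 57.0 FPKM (44.7 to 69.0) and 65.7 (51.2 to 79.0) in WT DCs, and at 54.7 (42.9 to 66.2) and 53.3 (41.7 to 64.4) in GEF-H1-/- DCs. For both genes, the intervals of all 4 groups overlapped.

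By level per length, *Hspa5* came first and *Chac1* last in each group. *Xbp1* stood above *Atf4* in both control groups and below it in both treated groups. In treated WT DCs the intervals of *Atf4* and *Xbp1* were apart, and in the other 3 groups they overlapped. *Sesn2* and *Dnajb9*, next to each other in the order, overlapped in every group.

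With the arms set side by side, in WT DCs the log2 change of the ATF4 arm had a median of 0.45 (0.12 to 0.92) and that of the ER arm a median of -0.10 (-0.79 to 0.20), a gap of 0.54. All genes past the filter had a median of 0.001, with quartiles of -0.26 and 0.26. Each ATF4 gene had a higher FPKM after the drug, and the signed change of 4 of the 5 lay above that of every ER gene, the exception being *Sesn2*. In size, the change of *Sdf2l1* was larger than that of each ATF4 gene but *Trib3*. Intervals apart were seen for 3 of the 10 members (2 higher, 1 lower), against 16.8% of all genes (9.19% higher, 7.58% lower). A change over 1 or under -1 was seen for 0 of 10 members, against 4.94% of all genes. No statement that the members respond more often than other genes follows from counts of this size.

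In GEF-H1-/- DCs the median log2 change was 0.20 in the ATF4 arm (-0.01 to 0.45) and -0.04 in the ER arm (-0.21 to 0.16), a gap of 0.24, which was 0.13 with a pseudocount of 5 FPKM. The median of all genes was -0.01, with quartiles of -0.13 and 0.12. None of the 10 members had intervals apart, against 3.7% of all genes, and none passed 1 in either direction, against 1.08%. Where the WT change was over 0.3 in size, the log2 change of GEF-H1-/- cells divided by that of WT cells was 0.445 for *Atf4*, 0.486 for *Trib3*, 0.558 for *Chac1*, 0.120 for *Asns* and 0.264 for *Sdf2l1*. This ratio was not computed for all genes, whose quartiles lay further apart in WT DCs (-0.26 and 0.26) than in GEF-H1-/- DCs.

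**Figure D2:**
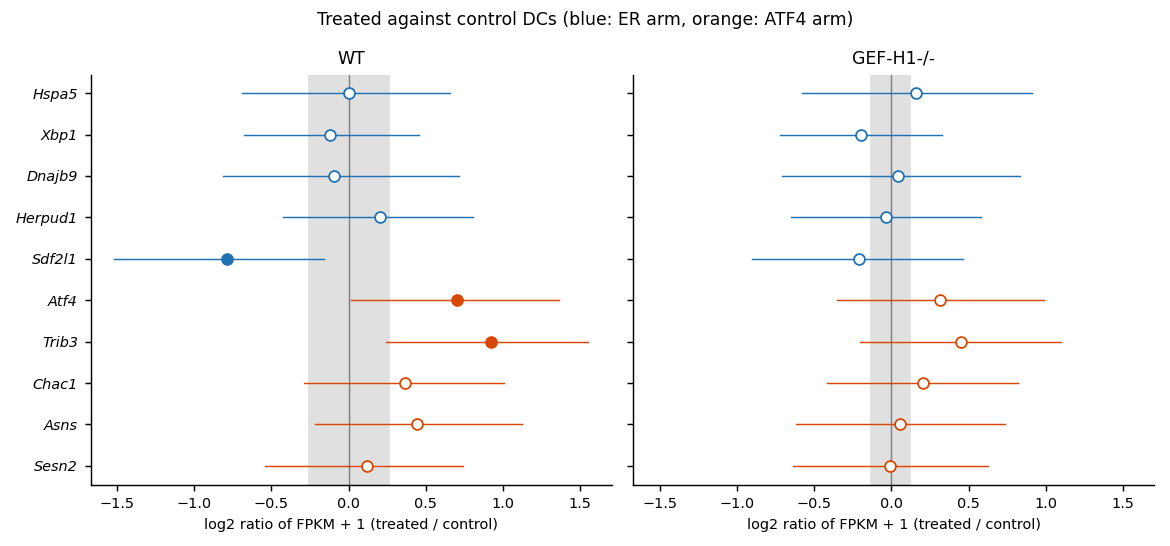
Log2 ratio of FPKM + 1 of treated to control DCs (horizontal axes) for each member in WT (left) and GEF-H1-/- DCs (right). Lines run between the values that the interval ends give, filled points have intervals apart, and the gray band holds the middle 50% of all genes past the filter. *Trib3* at 0.92, *Atf4* at 0.70 and *Sdf2l1* at -0.79 are the filled points, all in WT DCs.

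The difference between the genotypes in the effect of the drug (GEF-H1-/- minus WT) was negative for all 5 ATF4 genes, with a median of -0.39 (-0.48 to -0.13), and ran from -0.24 for *Herpud1* to 0.58 for *Sdf2l1* in the ER arm, with a median of 0.14. The median of all genes was -0.01. No member passed 1 in either direction, against 1.9% of all genes, and the range that the interval ends allow held 0 for every member, for *Trib3* from -1.75 to 0.86. The difference was not tested, since no values of single libraries were used.

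Between the genotypes, *Trib3* and *Chac1* were lower in GEF-H1-/- DCs already without the drug. In control cells the log2 difference from WT had a median of -0.37 in this arm (-0.78 to -0.28), with a lower FPKM for all 5 genes, and of 0.03 in the ER arm (-0.55 to 0.27). The median of all genes was -0.01. *Chac1* was lower by -0.78 and *Trib3* by -0.65 on the log2 scale, both with intervals apart, the latter by a narrow margin (6.13 against 6.05 FPKM). The values for *Asns*, *Sesn2* and *Atf4* were -0.37, -0.35 and -0.28, with overlapping intervals. Intervals apart were thus seen for 2 of 10 members, against 4.74% of all genes (1.88% lower), and 0 members passed 1 in either direction, against 1.88%. Among ER genes *Dnajb9* had a log2 difference of -0.55 and *Hspa5* of 0.27, both with overlap.

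In treated cells the median log2 difference was -0.76 in the ATF4 arm (-1.13 to -0.47) and -0.05 in the ER arm (-0.41 to 0.62), beside -0.03 for all genes, and each ATF4 gene lay below each ER gene. *Trib3* (-1.13), *Chac1* (-0.94) and *Asns* (-0.76) were lower in GEF-H1-/- DCs with intervals apart. *Atf4* had -0.67 and *Sesn2* -0.47, with overlap. The share with intervals apart was 3 of 10 members against 13.7% of all genes (6.73% lower). *Trib3* was the 1 member past 1 in either direction, against 4.06% of all genes. *Sdf2l1* had the highest value, 0.62, with intervals that overlapped from 82.8 to 85.2 FPKM. The genotype and drug comparisons share groups, so they do not count as separate support for one another.

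Markers of mast cells and basophils and of neutrophils were mostly apart between the genotypes as well, and those of other cell types mostly overlapped. Of 6 mast cell and basophil genes, 5 were higher in control GEF-H1-/- DCs (against 2.86% of all genes), and their summed level was 195.9 to 200.5 FPKM in the WT groups and 364 to 380.5 in the GEF-H1-/- groups. Of 6 neutrophil genes, 3 were lower and 1 higher in control GEF-H1-/- DCs with intervals apart, against 1.88% and 2.86% of all genes. Their sum was 30715 to 36150 FPKM in WT and 21129 to 21575 in GEF-H1-/- groups. For macrophage genes, the sum over 6 genes was 173 to 226 FPKM in WT and 243 to 269.6 in GEF-H1-/- groups. The 7 B and plasma cell genes summed to 19.7 to 23.1 FPKM in WT and 14.5 to 16.4 in GEF-H1-/- groups. The 6 T and NK cell genes summed to 14.7 to 16.4 and 10.2 to 10.8. These sums do not stand for every gene. In control cells, 2 of the 7 and 3 of the 6 had a higher FPKM in GEF-H1-/- DCs. Among those past the filter it was 1 of 5 and 0 of 3. Intervals in control cells overlapped for 4 of these 5, for 2 of these 3 and for 5 of the 6 macrophage genes. Apart were 1 macrophage gene, higher in GEF-H1-/- DCs, and 1 gene of each of the other 2 lists, lower there. Of all genes, 2.86% were higher and 1.88% lower. No marker was at 0 in any group. The part of these cell types in the differences of the ATF4 arm was not tested, and in such bulk RNA fewer cells of a type and less RNA per cell cannot be told apart. The sum of the 8 DC markers was 5660.2 FPKM without and 7374 with the drug for WT cells, and 4760.2 and 5249.9 for GEF-H1-/- cells. The neutrophil sum was 30715 and 36150 FPKM for WT cells, and 21129 and 21575 for GEF-H1-/- cells. All 6 neutrophil genes had overlapping intervals with the drug in each genotype. The sum over all genes was 609360 FPKM in control and 739523 in treated WT cells. The macrophage sum was 226 and 173 FPKM for WT cells, and 269.6 and 243 for GEF-H1-/- cells.

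**Figure D3:**
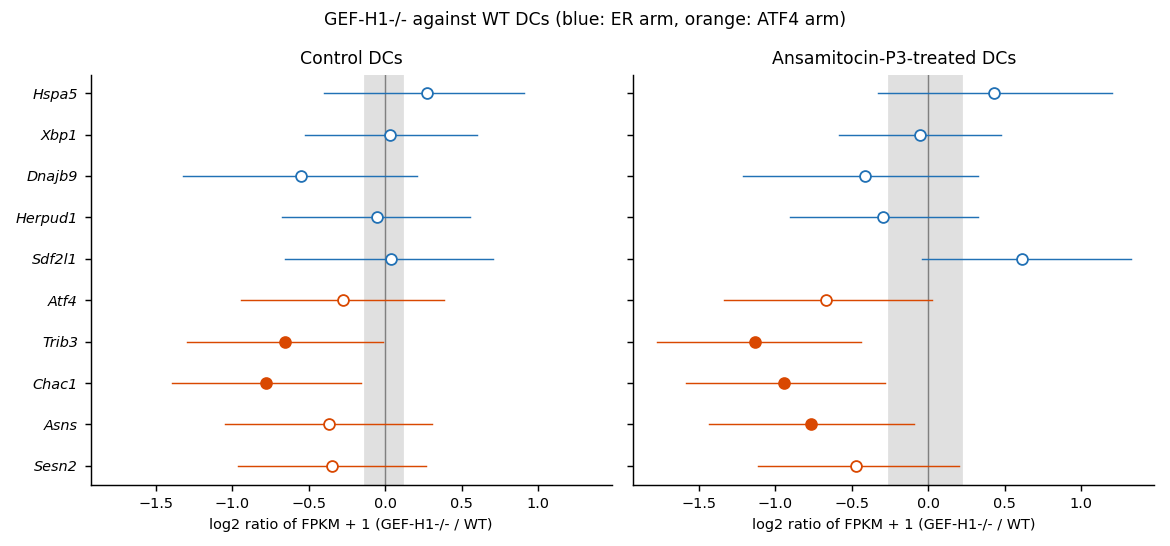
Log2 ratio of FPKM + 1 of GEF-H1-/- to WT DCs (horizontal axes) for each member in control (left) and ansamitocin-P3-treated DCs (right), with lines, filled points and gray band as in the plot of drug changes. The 5 orange points of the ATF4 arm lie below 0 in both panels, from -0.78 to -0.28 in control and from -1.13 to -0.47 in treated cells.

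Of 18 sensors and regulators of the arms, 17 had overlapping intervals after the drug in each genotype. Of all genes, 16.8% had intervals apart for WT and 3.7% for GEF-H1-/- cells. The median log2 change of the 18 was -0.02 for WT and 0.02 for GEF-H1-/- cells. The sensor genes *Ern1* (IRE1), *Eif2ak3* (PERK) and *Atf6* changed by 0.07, 0.16 and 0.32 in WT DCs, and *Eif2ak4* (GCN2), *Eif2ak2* (PKR) and *Eif2ak1* (HRI) by -0.12, -0.38 and 0.01, all with overlap. The exception was *Ppp1r15a*, which encodes GADD34, the phosphatase subunit that reverses eIF2α phosphorylation. This gene is also in the list of further ATF4-type genes below, so it does not stand only for the upstream part. It rose from 11.6 FPKM (8.87 to 14.3) to 31.9 (24.95 to 39.1) for WT cells and from 13.4 (10.2 to 16.8) to 22.4 (17.2 to 27.7) for GEF-H1-/- cells, log2 changes of 1.38 and 0.70. *Ppp1r15b*, its constitutive counterpart, had 0.38 and 0.08.

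Of 38 further ER chaperone, folding and degradation genes past the filter, all 38 had overlapping intervals with the drug in each genotype, beside the same 16.8% and 3.7% of all genes with intervals apart. Their log2 change had a median of -0.03 for WT and 0.01 for GEF-H1-/- cells. The 4 with the largest WT change at 5 FPKM or more were *Edem1*, a lectin of ER-associated degradation (0.55), *Hyou1*, an ER chaperone of the HSP70 type (-0.51), *Ero1l*, the ER oxidase (0.48), and *Pdia4*, a disulfide isomerase (-0.44). Their changes in GEF-H1-/- DCs were 0.34, -0.12, 0.19 and -0.08. Between treated groups, *Hyou1* was higher in GEF-H1-/- DCs, at 59.9 FPKM (48.5 to 71.2) against 33.5 (27.3 to 39.7).

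Of 25 further ATF4-type genes past the filter, 6 rose and 1 fell for WT cells, 5 rose and 0 fell for GEF-H1-/- cells, with medians of 0.12 and -0.02. Beside this, 9.19% of all genes rose and 7.58% fell for WT cells, and 2.75% rose and 0.956% fell for GEF-H1-/- cells. *Ppp1r15a*, given above among the sensors and regulators, is counted again here among those that rose in both genotypes. The largest changes were those of *Gdf15*, a secreted stress cytokine, with 3.22 for WT and 2.60 for GEF-H1-/- cells, *Ndrg1*, a stress- and hypoxia-responsive gene, with 2.07 and 1.14, and *Sqstm1*, the autophagy receptor p62, with 1.77 and 0.61. All 3 rose in both genotypes, and all 3 are also known targets of factors other than ATF4. *Sqstm1* was at 478 FPKM (386 to 570) in treated WT and 214 (175 to 254) in treated GEF-H1-/- DCs. Genes of serine synthesis, which ATF4 is known to drive, had lower FPKM after the drug in WT DCs with overlapping intervals, among them *Phgdh* (-0.27) and *Psat1* (-0.22), both named after their values were seen.

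Between the genotypes the wider lists of ATF4-type and transporter genes went both ways in control cells. Of the 25 ATF4-type genes, 2 were higher and 2 lower in control GEF-H1-/- DCs, against 2.86% and 1.88% of all genes, with a median log2 difference of -0.03. In treated cells 3 were higher and 5 lower, against 7.02% and 6.73%, with a median of -0.36. Of the 12 amino acid transporter genes, 2 were higher and 2 lower in control cells (median -0.15) and 0 higher and 3 lower in treated cells (median -0.11). The wider ER list had 0 genes apart in control cells and 2 higher in treated cells, with medians of 0.13 and 0.15. Of the 20 aminoacyl-tRNA synthetase genes, 0 were higher and 2 lower in control cells, and 2 higher and 2 lower in treated cells, with medians of -0.18 and -0.03.

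Of 12 amino acid transporter genes past the filter, 3 rose for WT and 2 for GEF-H1-/- cells, and 0 fell. Of all genes, 9.19% and 2.75% rose and 7.58% and 0.956% fell. *Slc7a11*, the cystine carrier, rose from 12.8 FPKM (9.60 to 15.5) to 53.4 (41.7 to 64.8) for WT cells and from 11.3 (8.45 to 13.6) to 24.1 (18.4 to 29.4) for GEF-H1-/- cells. *Slc7a2*, an arginine carrier, changed by 1.68 and 0.67, with a rise in both genotypes. *Slc3a2*, the heavy chain shared by several carriers, rose in WT DCs (0.82) and had 0.20 in GEF-H1-/- DCs, and *Slc38a2*, a glutamine carrier, had 0.63 and 0.17 with overlap in both.

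Of 20 aminoacyl-tRNA synthetase genes of the cytosol, 0 rose and 2 fell in WT DCs (*Vars*, -0.64, and *Dars*, -0.62), and all 20 overlapped in GEF-H1-/- DCs. The share of all genes that fell in WT DCs, 7.58%, is near 2 of 20, and 9.19% rose. *Cars*, for cysteine, had the largest positive change among the 4 named, 0.42 in WT DCs. It was lower in GEF-H1-/- than in WT DCs without overlap, at 11.8 FPKM (8.67 to 15.0) against 21.8 (17.3 to 26.3) in control and 12.5 (9.32 to 15.9) against 29.5 (22.4 to 37.1) in treated cells.

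**Figure D4:**
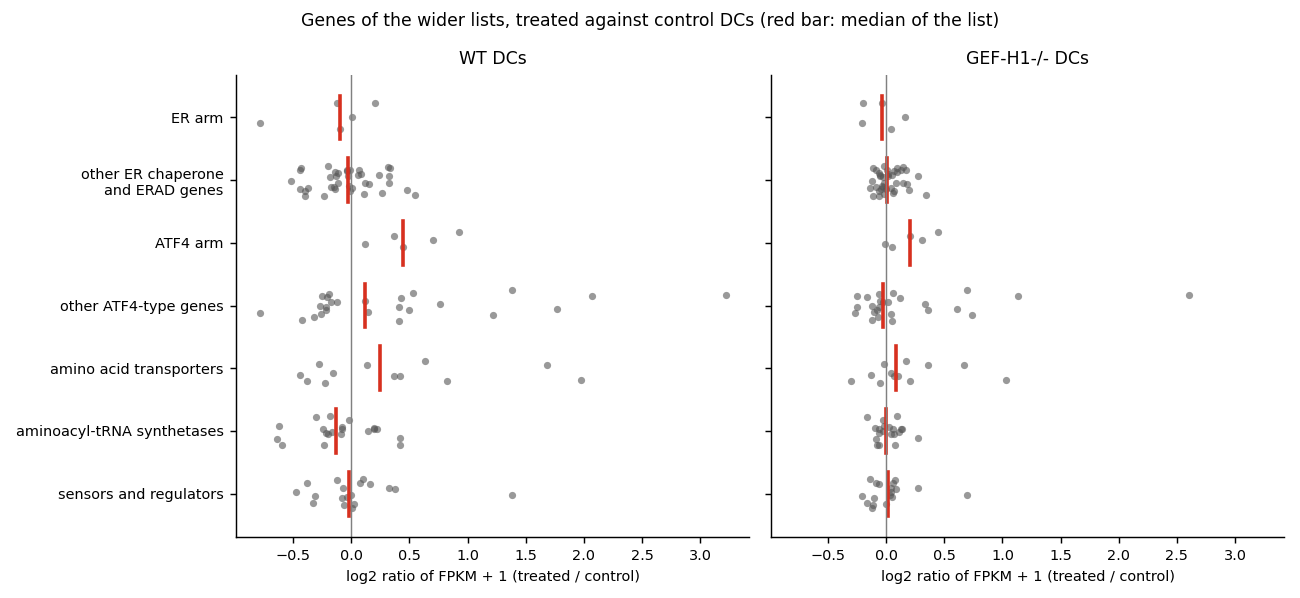
Log2 ratio of FPKM + 1 of treated to control DCs (horizontal axes) for every gene past the filter in the 2 arms and 5 wider lists, in WT (left) and GEF-H1-/- DCs (right); each point is a gene, shifted vertically at random within its list, and red bars are medians. *Ppp1r15a* and *Atf6* appear in 2 lists each. The ATF4 arm has the highest median, 0.45 for WT and 0.20 for GEF-H1-/- cells, and single ATF4-type genes reach 3.22 and 2.60.

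Paralogs of the members went in different directions. *Trib1* rose in both genotypes, with log2 changes of 2.48 and 1.63 for WT and GEF-H1-/- cells, and *Trib2* fell in WT DCs (-1.30) and had -0.30 in GEF-H1-/- DCs. *Sdf2*, the close relative of *Sdf2l1*, had 0.57 and 0.04, and *Atf5*, a factor related to ATF4, had 0.53 and 0.06, both with overlapping intervals. For *Trib1*, the treated groups were apart at 60.2 FPKM (46.2 to 74.1) in WT and 33.7 (25.9 to 41.2) in GEF-H1-/- DCs, as they were for *Trib3*.

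The member with the largest range over the 4 groups was *Trib3* in the ATF4 arm (1.58 on the log2 scale) and *Sdf2l1* in the ER arm (0.82). Among 8894 genes at 5 FPKM or more in at least 1 group, the genes closest to *Trib3* in log2 (FPKM + 1), centered over the 4 groups, were *Pmepa1*, *Gch1*, *Serpinb6b*, *Plscr1* and *Tbc1d9*, at Euclidean distances of 0.0873 to 0.152. Those closest to *Sdf2l1* were *Tmcc3*, *Jmjd8*, *Dbt*, *Mrpl12* and *Mrps35*, at 0.0141 to 0.0415. With 4 values per gene, such likeness is easily met.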

How the data were processed

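RNA from 8 libraries of BMDCs was used by the authors for stranded, polyadenylated-RNA libraries (500 ng of RNA, paired 35-base reads). The authors computed FPKM and its 95% interval per group with Cuffdiff (1.05 as the processing notes write it, build mm10). The aligner and annotation behind this table are not given in the sources used here. Column names gave the groups, control WT by elimination; 0 columns of single libraries were left unused. Depth per library is unknown, and the intervals are the precision available.

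Of 23356 genes, 107 had a status other than OK in Cuffdiff and were left out, and a filter of 1 FPKM in at least 1 group left 11397. Changes were log2 ratios of FPKM + 1 (Python 3.11.15, pandas 2.3.3), counted past 1 or below -1, or where Cuffdiff intervals did not overlap. The calculation was tested on simulated data with changes larger than those of the members, so that test does not bear on changes of their size. The members and lists were chosen with earlier results of these data known. Named by rule are *Arhgef2*, the members, sensors at 5 FPKM or more, the 4 largest WT changes of each other list at 5 FPKM or more, and the 5 nearest genes to 1 member per arm (names of small RNAs and numbered Gm genes left out). Named outside this rule, with their values known, are *Phgdh*, *Psat1*, *Mthfd2*, *Stc2* and the other aminoacyl-tRNA synthetases. Genes that overlap a member were named by position. Alternatives were other pseudocounts, filters, scaling, thresholds and arm means.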

Additional observations from a re-analysis of the deposited data

How the results depend on the processing

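The counts of members past the threshold moved with the setting. With a pseudocount of 0.1 FPKM, 1 member passed between the control groups and 2 between the treated groups, and with 5 FPKM it was 0 between the treated groups. With a threshold of 0.58, 3 members passed for the drug in WT, 2 between control and 5 between treated groups. Requiring intervals apart gave 3, 2 and 3, against 16.8%, 4.74% and 13.7% of all genes. For the other pseudocounts and the threshold of 0.58 the share of all genes was not computed. Those counts therefore cannot be read as a result about the members. The filters could not change the gap between the arms, since all 10 members pass them, and rescaling the groups hardly could, since it shifts the genes nearly alike. With pseudocounts of 5 and 0.1 FPKM, in that order, the gap was 0.50 and 0.56 for WT, 0.13 and 0.31 for GEF-H1-/- cells, -0.36 and -0.41 between control and -0.60 and -0.73 between treated groups. No paired analysis was possible because each group is 1 pooled value, and for the same reason no replicate could be left out. Without depth or single libraries, differences between groups with overlapping Cuffdiff intervals could be neither called nor excluded.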

Other observations

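Within the cytosolic aminoacyl-tRNA synthetases, a split was seen after the values were known. The genes *Aars*, *Gars*, *Nars*, *Sars*, *Wars*, *Eprs*, *Iars*, *Lars*, *Mars*, *Cars*, *Tars* and *Yars*, commonly listed as ATF4 targets, had the smaller FPKM value in GEF-H1-/- cells without the drug in 12 of 12 cases, with a median log2 difference of -0.30 (-0.83 to -0.03). Intervals were apart for 2 of them, *Cars* and *Aars*, where 1.88% of all genes were lower with intervals apart. The other 8 genes (*Hars*, *Vars*, *Rars*, *Kars*, *Dars*, *Qars*, *Farsa* and *Farsb*) had a median of 0.21 (-0.17 to 0.26), with a higher FPKM in 6 and intervals apart in 0. In treated cells the medians were -0.36 and 0.38. After the drug in WT DCs, 5 of the 12 and 1 of the 8 had a higher FPKM, with medians of -0.05 and -0.27. The split was chosen after seeing these values and was not tested, and the list as a whole had a median of -0.18 in control and -0.03 in treated cells.

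*Mthfd2*, a mitochondrial folate enzyme and a known ATF4 target, was also named after its values were seen and is 1 of 25 genes of a list that went both ways. WT cells had 63.3 FPKM (48.5 to 77.2) without and 89.6 (69.1 to 109.8) with the drug, and GEF-H1-/- cells had 35.4 (27.1 to 43.5) and 45.6 (35.03 to 55.9). The genotypes were apart in both states and the drug comparisons overlapped. *Stc2*, also named with its values known, encodes a secreted glycoprotein induced in ER stress. It ran the other way, with 2.80 FPKM without and 1.20 with the drug for WT cells. GEF-H1-/- cells had 5.57 and 4.45, with the genotypes apart in both states.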
